A study of Mus musculus with 16 samples.

Results

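The genes that build sterols and fatty acids, with their regulators, were followed across a mouse model of nasopharyngeal tumours. The set holds 31 genes of the 24421 in the tumour tables, picked by name: 8 enzymes of the mevalonate route, 11 enzymes that turn its product into cholesterol, 6 regulators or carriers of sterols, and 6 enzymes of fatty acid synthesis. All 31 were matched by symbol in the tumour tables and in the table of normal organoids, and all 31 passed the filter on low counts in each fit. Polyadenylated RNA was sequenced from 16 libraries of organoids, cultures that grow as small self-organised clusters, all from C57BL/6 mice. The genotype Trp53-/-;Myc;sgCdkn2a, called TMP, makes up the groups Ctr (n = 3) and Lung-Ctr (n = 2). Adding LMP1 to it gives the genotype TMPL, sequenced as the groups LMP1 (n = 2) and Lung-LMP1 (n = 3); LMP1 is a membrane protein that Epstein-Barr virus uses to switch on host signalling. All 4 tumour groups therefore carry the labels Trp53-/-, Myc and sgCdkn2a, which name the p53 gene, the Myc oncogene and a guide against Cdkn2a, and their tumours grew in recipient mice after cells were placed in the nasopharynx. Untreated normal tissue is represented by Normal_nasopha (n = 3), from nasopharynx, and Normal_lung (n = 3). The sources used here give neither the promoters that drive Myc and LMP1 nor the number of mice or clones nor the animals' age. Nothing says that replicates came from separate animals or cultures, so a p-value here measures only the spread between these libraries, which may be technical.

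Cells make cholesterol from acetyl-CoA through mevalonate, isoprenoid diphosphates, squalene and lanosterol, and make fatty acids from the same acetyl-CoA through malonyl-CoA. Both routes are controlled by SREBP transcription factors, which stay in the endoplasmic reticulum while bound by the SCAP and INSIG proteins and are cut free in the Golgi when sterols run low. SREBP2, from Srebf2, is best known for sterol genes, and SREBP1, from Srebf1, for fatty acid genes. Epithelia of the lung also use these routes for secretion, since alveolar type 2 cells build surfactant from saturated phospholipids.

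Promoters of 5 genes are shown because they belong to the 3 enzymes that were lower in LMP1 than in Ctr (Hmgcs1, Msmo1 and Sc5d) and to 2 of the sterol route that were higher (Mvd and Ebp). They come from RefSeq on GRCm38.p6 and run from 250 bases before to 50 bases after the annotated start, 5′ to 3′ on the gene's strand. Their positions are chr13:119690101-119690400 on the plus strand for Hmgcs1, chr8:64733529-64733828 on the minus strand for Msmo1, chr9:42264251-42264550 on the minus strand for Sc5d, chr8:122443373-122443672 on the minus strand for Mvd and chrX:8193463-8193762 on the minus strand for Ebp. Capitals mark exact matches, on either strand, to a sterol regulatory element (TCACNCCAC), a CCAAT box (CCAAT, or ATTGG on the other strand), an E-box (CACGTG) and a GC box (GGGCGG, or CCGCCC on the other strand).

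Hmgcs1: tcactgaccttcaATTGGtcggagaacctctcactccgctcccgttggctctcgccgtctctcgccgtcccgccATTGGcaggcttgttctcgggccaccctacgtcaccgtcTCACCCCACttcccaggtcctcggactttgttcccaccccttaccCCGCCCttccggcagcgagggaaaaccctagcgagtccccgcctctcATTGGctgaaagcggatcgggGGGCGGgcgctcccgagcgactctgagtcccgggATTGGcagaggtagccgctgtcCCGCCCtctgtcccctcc
Msmo1: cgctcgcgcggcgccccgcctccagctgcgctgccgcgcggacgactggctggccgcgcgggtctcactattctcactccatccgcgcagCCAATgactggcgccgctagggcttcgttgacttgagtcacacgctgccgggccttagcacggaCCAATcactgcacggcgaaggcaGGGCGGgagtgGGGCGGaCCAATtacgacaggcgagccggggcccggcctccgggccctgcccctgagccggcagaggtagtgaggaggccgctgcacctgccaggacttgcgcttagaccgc
Sc5d: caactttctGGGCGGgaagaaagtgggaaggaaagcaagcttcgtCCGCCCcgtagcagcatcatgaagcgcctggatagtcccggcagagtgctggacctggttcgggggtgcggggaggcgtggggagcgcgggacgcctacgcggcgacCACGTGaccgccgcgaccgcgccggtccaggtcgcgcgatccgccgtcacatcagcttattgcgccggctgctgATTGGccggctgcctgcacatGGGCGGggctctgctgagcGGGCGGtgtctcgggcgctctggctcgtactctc
Mvd: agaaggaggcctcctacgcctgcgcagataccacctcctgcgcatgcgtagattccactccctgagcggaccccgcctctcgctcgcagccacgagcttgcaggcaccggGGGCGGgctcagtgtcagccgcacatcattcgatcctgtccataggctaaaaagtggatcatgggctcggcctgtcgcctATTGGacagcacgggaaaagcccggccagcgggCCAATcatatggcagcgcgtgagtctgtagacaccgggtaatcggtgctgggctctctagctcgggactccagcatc
Ebp: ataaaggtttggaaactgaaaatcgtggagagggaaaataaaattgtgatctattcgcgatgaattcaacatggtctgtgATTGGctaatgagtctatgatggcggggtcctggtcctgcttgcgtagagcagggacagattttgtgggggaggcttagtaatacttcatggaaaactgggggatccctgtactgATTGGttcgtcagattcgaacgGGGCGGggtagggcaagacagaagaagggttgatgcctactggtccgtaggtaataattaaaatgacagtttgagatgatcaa

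RefSeq windows were found for 25 of the 31 genes, 33 windows in all, and Fdps, Fdft1, Sqle, Stard4, Scd1 and Scd2 had no window. The sterol regulatory element was matched in 1 of the 33 windows (3.03%), that of Hmgcs1 at position -137 from the start, and in 1.24% of all 32851 windows of that length. A CCAAT box was matched in 22 windows (66.7%, against 37.4% of all windows), a GC box in 24 (72.7%, against 35.7%) and the E-box in 6 (18.2%, against 7.15%). All 5 windows printed hold a CCAAT box and a GC box, whether the gene was counted higher or lower in LMP1, and the E-box is in that of Sc5d alone. A GC box can share letters with a CCAAT box, and a sterol regulatory element with an E-box, but no match overlaps another in the windows printed. A match is an exact run of letters and was not tested as a binding site, and variant forms of these elements were not counted.

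Library totals ran from 12535166 to 21737184 counts, and 3 counts correspond to 0.138 to 0.239 CPM, the count scaled to a library total of 1000000. The design text names primary and metastasized organoids of both genotypes, whereas in the sample descriptions primary goes with TMP and metastasis with TMPL throughout. Groups are therefore named by their titles, and the prefix Lung is not read as a site of growth. In 1 deposited table, 3 columns stand beside Ctr under normal lung headings although its comparison is with nasopharynx. Across 22549 genes they correlated at 0.981 to 0.982 (Pearson r of log2 of count + 1) with the Normal_nasopha library of the same number, at 0.949 to 0.957 with the other 2, and at 0.894 to 0.911 with Normal_lung. These columns are called the normal comparator below and are not counted as further samples. Myc was at 457 to 2005 CPM in the tumour libraries and 62.2 to 100.04 in the comparator; Trp53 was at 58.1 to 109 CPM in the tumours and 63.3 to 156 in the comparator, and Cdkn2a at 122 to 381 and 4.83 to 7.82. The altered part of either gene is not given, so these counts do not check the labels, and LMP1 itself was not analysed here. The LMP1 libraries stand apart from the other tumours in cell markers: 6 of 6 basal epithelial markers were called lower than in Ctr, with summed levels of 133 to 187 CPM against 1333 to 3364, and 8 mesenchymal markers summed to 1644 to 2051 CPM in LMP1, 3.01 to 570.2 in Ctr (the highest in replicate 2) and 8.86 to 23.98 in the groups with the Lung prefix. Of 7 mesenchymal markers tested against Ctr, 1 was called higher in LMP1. The LMP1 sum was mostly Vim (1350 and 1017 CPM) and Fn1 (618 and 586). Col3a1 (60.8 and 24.8), Dcn (10.5 and 9.13) and Pdgfrb (7.91 and 4.67) followed, with Col1a1, Col1a2 and Pdgfra at most at 1.66 CPM. Col3a1 was also at 95.2 CPM in Ctr replicate 2, and at most at 0.139 in Ctr replicates 1 and 3. The summed level of the 4 adipocyte markers, nearly all of it Lpl, came to 102 to 146 CPM in Ctr, 129.9 to 163 in LMP1, 139.8 to 149.7 in Lung-Ctr, 23.1 to 47.7 in Lung-LMP1 and 0.483 to 2.29 in the comparator; Plin1 and Cidec were at 0 in every tumour library, and endothelial markers summed to at most 0.796 CPM. In bulk RNA a change in the mix of cells and a change per cell cannot be told apart.

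Per base of exon, levels within the set spanned a wide range. Averaged over the 4 tumour groups' libraries, the stearoyl-CoA desaturase gene Scd2 stood highest at 717 RPKM (CPM per kilobase of exon), followed by Idi1 at 142, Scd1 at 105, Hmgcs1 at 99.9 and Insig1 at 99.6. Tm7sf2, a sterol reductase, stood lowest at 3.12 RPKM, below Mvk at 9.0 and Ggps1 at 9.45. Across the 10 tumour libraries the ratio of the highest to the lowest CPM was below 2 for 10 of the 31 genes and 3 or more for 3 of them, Fasn (3.81), Hsd17b7 (3.45) and Mvd (3.21). Fdft1, which encodes squalene synthase, was the steadiest, with a ratio of 1.32. Within groups, the median ratio of highest to lowest library was 1.25 in Ctr, 1.14 in LMP1, 1.27 in Lung-Ctr and 1.26 in Lung-LMP1. Genes above a set mean CPM in each group gave 1.47, 1.10, 1.29 and 1.35 (10471, 10275, 10426 and 10137 genes).

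**Figure D1:**
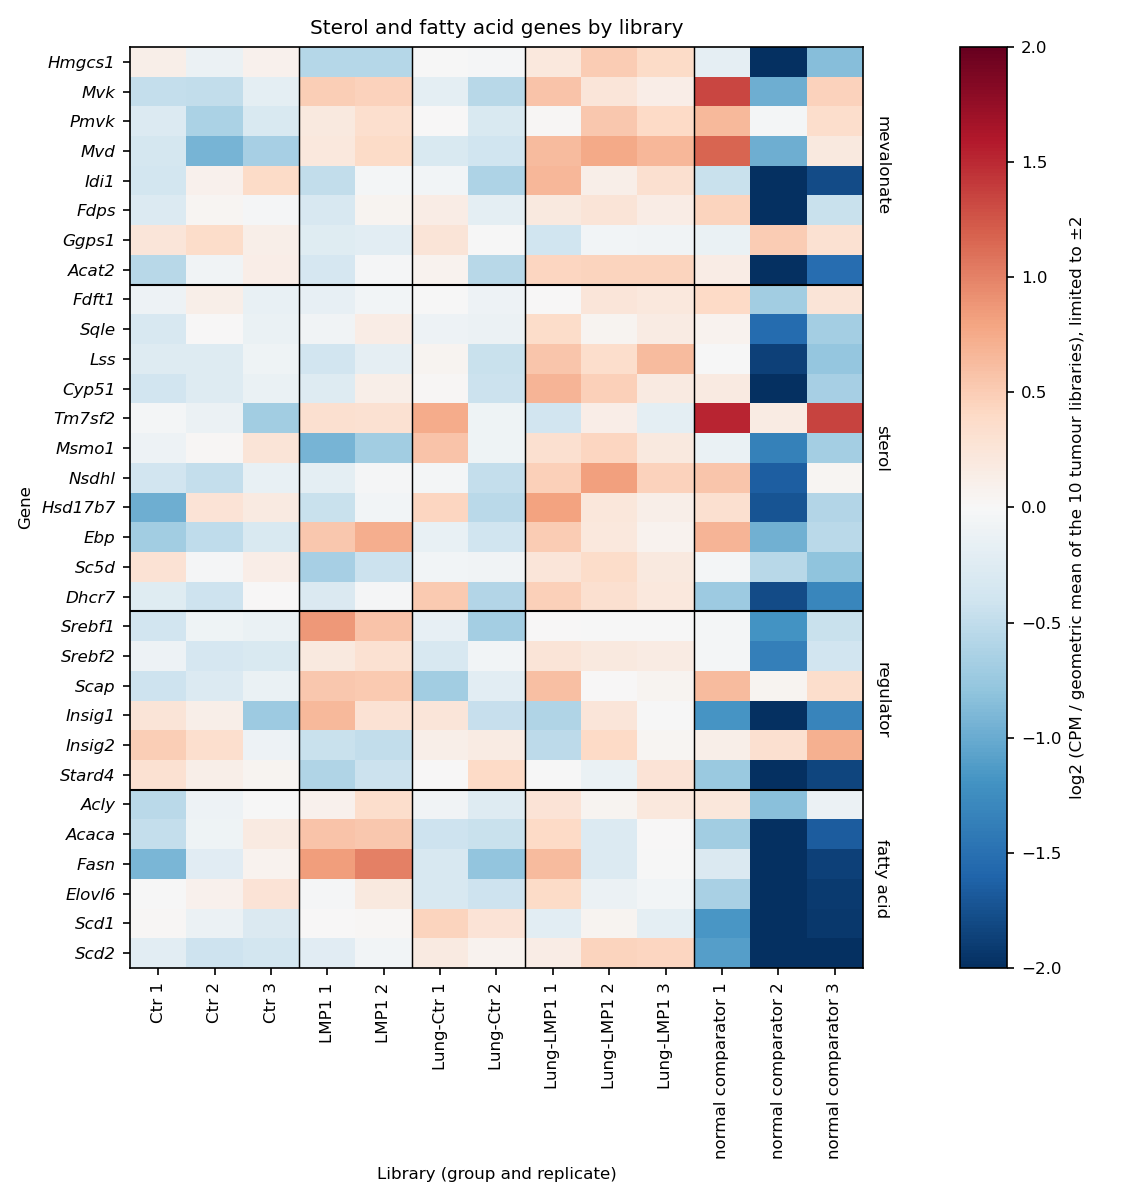
Level of each of the 31 genes (rows, grouped by role) in each tumour library and each normal comparator column, as log2 of CPM over the geometric mean of the 10 tumour libraries, with colours limited to ±2. The LMP1 libraries are blue for Hmgcs1, Msmo1, Sc5d and Stard4 and red for Srebf1 and Fasn, Lung-LMP1 is red over most sterol genes, and comparator replicate 2 is blue for nearly the whole set.

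LMP1 and Ctr compare the genotypes with and without LMP1 among libraries lacking the Lung prefix. Of the 31 genes, 7 rose in LMP1 (Ebp, Srebf1, Mvd, Mvk, Fasn, Srebf2 and Scap) and 4 fell (Sc5d, Hmgcs1, Msmo1 and Stard4), by at most 2.30-fold, at an adjusted p under 0.05 in edgeR's quasi-likelihood test. That is 35.5% of the set, where 16.4% of all 13460 genes tested passed (7.36% higher and 9.06% lower). The set's median log2 fold change was 0.16, against -0.01 over all genes. Along the pathway the calls went both ways: Hmgcs1, early in the mevalonate route, fell while Mvk and Mvd, further along it, rose. Both SREBP genes rose. Group ranges, as CPM scaled by TMM factors, did not overlap for 12 genes that were higher and 6 that were lower in LMP1, against 28.4% and 27.8% of all genes.

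In the mevalonate route, 2 genes rose, 1 fell and 5 did not pass. Hmgcs1 encodes the cytosolic synthase that joins acetyl-CoA to acetoacetyl-CoA (chromosome 13, 119690379 to 119708260, GRCm38), and it was counted at 301 and 303 CPM in LMP1 and 484, 414 and 474 in Ctr. Both LMP1 libraries lay below all of Ctr and close to each other. The fall was 1.54-fold (log2 fold change -0.62 ± 0.14 SE, edgeR adjusted p = 0.0193). Mvk, the mevalonate kinase (chromosome 5, 114444269 to 114460591), was at 32.7 and 31.7 CPM in LMP1 and 16.7, 16.5 and 20.2 in Ctr. Its LMP1 libraries were both higher, with a 1.78-fold rise (0.83 ± 0.22 SE on the log2 scale, edgeR adjusted p = 0.0332). Mvd, the decarboxylase that yields isopentenyl diphosphate (chromosome 8, 122433601 to 122443422), was at 44.3 and 50.002 CPM in LMP1 and 30.2, 20.2 and 24.3 in Ctr. These ranges were again apart, and Mvd rose 1.86-fold (0.90 ± 0.19 SE, edgeR adjusted p = 0.0164). Pmvk, the kinase between them, had a log2 fold change of 0.63 (edgeR adjusted p = 0.0727), and Ggps1, which makes geranylgeranyl diphosphate, one of -0.49 (edgeR adjusted p = 0.0716). The values of Idi1, Fdps and Acat2 overlapped between the groups.

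Among the 11 enzymes after farnesyl diphosphate, 1 rose, 2 fell and 8 did not pass. Ebp, a sterol isomerase (chromosome X, 8185329 to 8193512), had the smallest adjusted p of the set. Its levels were 42.8 and 48.8 CPM in LMP1 and 18.1, 20.6 and 23.8 in Ctr, with both LMP1 libraries above all of Ctr, a 2.16-fold rise (1.11 ± 0.21 SE on the log2 scale, edgeR adjusted p = 0.0128). Sc5d, the desaturase that acts after Ebp (chromosome 9, 42251595 to 42264256), went the other way. It was at 84.8 and 99.2 CPM in LMP1 and 164, 132 and 147 in Ctr, a 1.63-fold fall (-0.71 ± 0.15 SE, edgeR adjusted p = 0.0172). Msmo1, the oxidase that starts removal of the methyl groups from the sterol ring (chromosome 8, 64718139 to 64733792), was at 185 and 218 CPM in LMP1 and 329, 359 and 423 in Ctr. Both LMP1 values lay below all of Ctr, and Msmo1 fell 1.86-fold (-0.90 ± 0.22 SE, edgeR adjusted p = 0.0280). Sqle, the squalene epoxidase, overlapped between the groups with an interval of -0.19 to 0.52 on the log2 scale (edgeR adjusted p = 0.497), as did Cyp51, the lanosterol demethylase, with -0.31 to 0.65 (edgeR adjusted p = 0.615).

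Of the regulators, 3 rose, 1 fell and 2 did not pass. Srebf1 (chromosome 11, 60199089 to 60222581) was at 458 and 372 CPM in LMP1 and 192, 237 and 228 in Ctr. All Ctr libraries lay below both LMP1 libraries, and the rise was 1.87-fold (0.90 ± 0.18 SE on the log2 scale, edgeR adjusted p = 0.0141). Srebf2 (chromosome 15, 82147181 to 82205379) was at 465 and 502 CPM in LMP1 and 378, 322 and 329 in Ctr, again without overlap. Its change was smaller, 1.39-fold (0.47 ± 0.14 SE, edgeR adjusted p = 0.0460). Scap, which escorts SREBP proteins to the Golgi (chromosome 9, 110333288 to 110384950), was at 178 and 178 CPM in LMP1 and 92.2, 102 and 113 in Ctr, higher in both LMP1 libraries by 1.71-fold (0.78 ± 0.23 SE, edgeR adjusted p = 0.0478). Stard4, a carrier that moves cholesterol between membranes, was at 109 and 122 CPM in LMP1 and 204, 179.7 and 172 in Ctr. It lay lower in both LMP1 libraries and fell 1.62-fold (-0.70 ± 0.17 SE, edgeR adjusted p = 0.0302). The retention factors did not pass: Insig1 was at 466 and 360.1 against 353, 319 and 179 CPM (edgeR adjusted p = 0.312) and Insig2 at 40.0 and 39.1 against 76.9, 69.4 and 51.1 CPM (edgeR adjusted p = 0.0822). Insig1 was higher and Insig2 lower in both LMP1 libraries than in all of Ctr.

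Fatty acid synthesis had 1 called gene of 6. Fasn, the fatty acid synthase (chromosome 11, 120805846 to 120824547), was at 1574 and 1779 CPM in LMP1 and 467, 751 and 929.9 in Ctr. Ctr itself spread over a 1.99-fold range, yet both LMP1 libraries lay above it, with a 2.30-fold rise (1.20 ± 0.34 SE on the log2 scale, edgeR adjusted p = 0.0436). Acly, which supplies cytosolic acetyl-CoA from citrate, was at 463 and 556 against 301, 408 and 435 CPM and did not pass (edgeR adjusted p = 0.171). Acaca, which makes malonyl-CoA, was at 371 and 363 against 179.8, 236 and 282 CPM (edgeR adjusted p = 0.0997). The desaturases showed no detectable difference, with log2 intervals of -0.21 to 0.44 for Scd1 (edgeR adjusted p = 0.605) and -0.15 to 0.48 for Scd2 (edgeR adjusted p = 0.427).

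**Figure D2:**
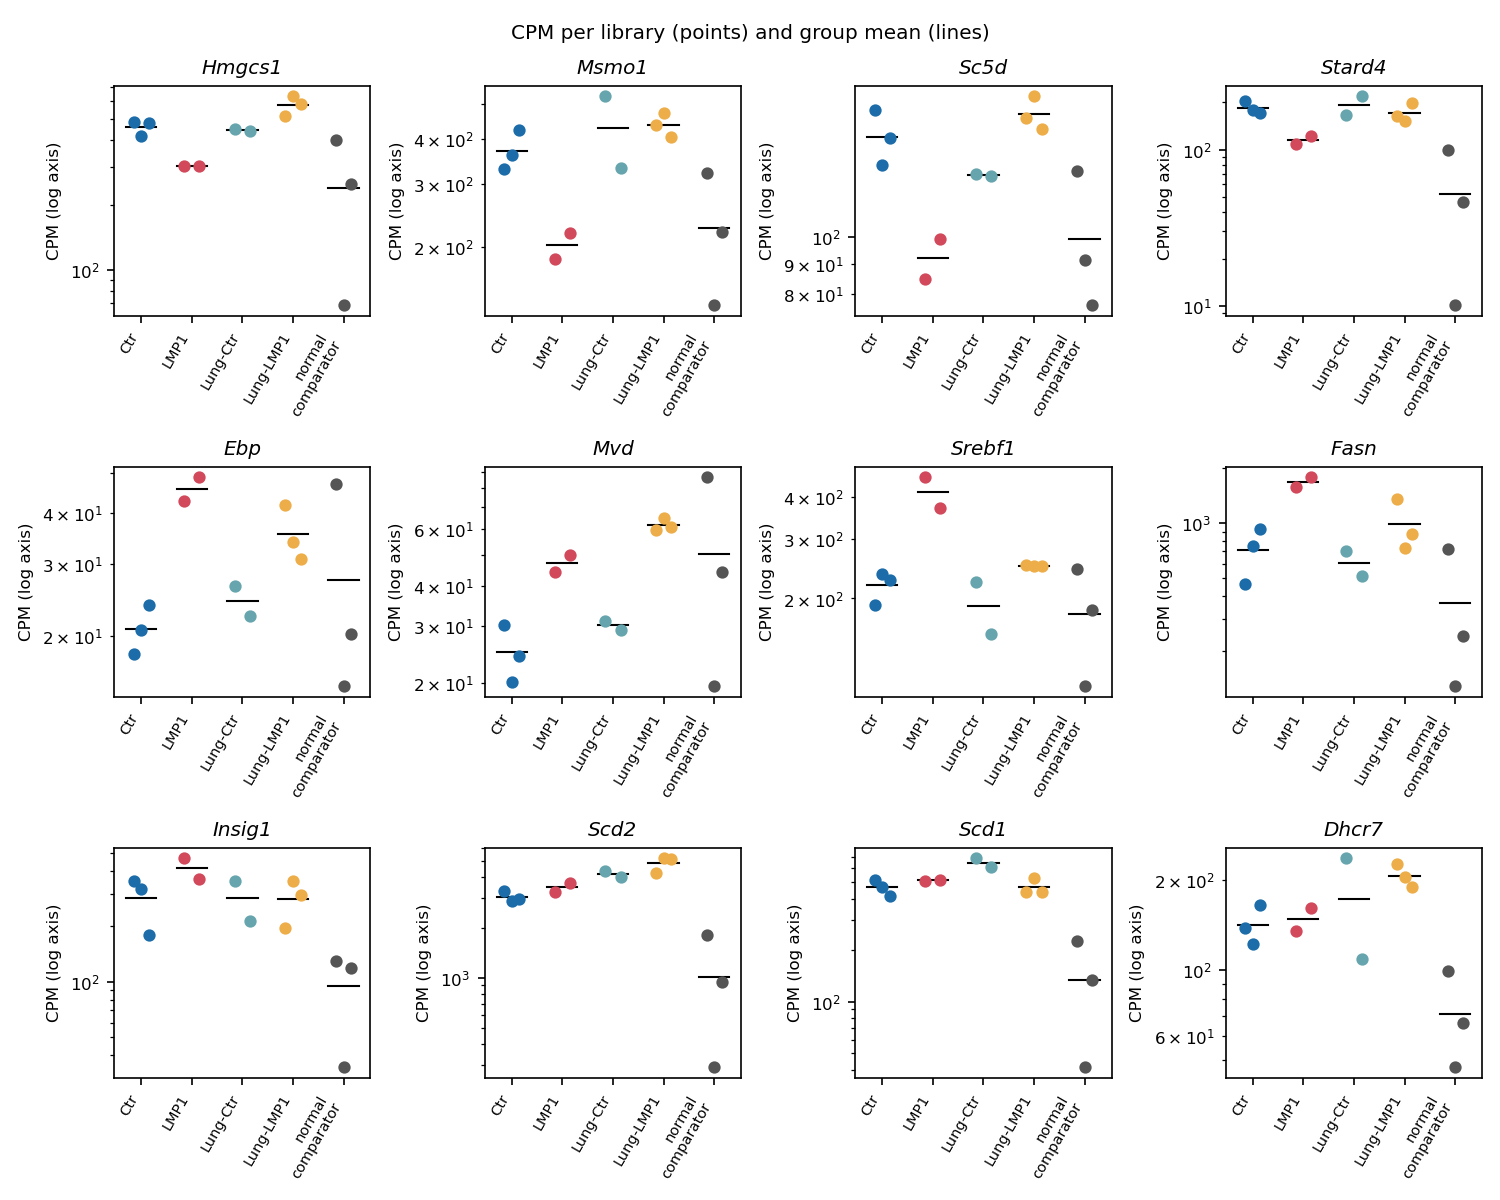
CPM by total count (log axes) of 12 of the genes, 1 panel each, in the 4 tumour groups and the normal comparator; points are libraries and lines group means. LMP1 lies lowest of the tumour groups for Hmgcs1, Msmo1, Sc5d and Stard4 and highest for Ebp, Srebf1 and Fasn, and the 10 tumour libraries lie above the 3 comparator columns for Insig1, Scd1, Scd2 and Dhcr7.

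The direction of the calls went with base composition. GC content of the longest transcript was 50.9% to 59.1% (median 57.9%) for the 7 genes that rose and 42.9% to 44.7% (median 43.5%) for the 4 that fell, within a set that spans 40.1% to 59.1%. Across the 31 genes, Spearman's rho between GC content and log2 fold change was 0.77, as a description, since the genes share libraries. After a smooth trend of counts with GC content and transcript length was removed from each library, rho was 0.49, and 1 of the 31 genes remained called, Ebp (1.12 on the log2 scale, edgeR adjusted p = 0.0190); over all genes 1102 were called in place of 2210. The 11 called genes all kept their direction under that correction, with Hmgcs1 at -0.26, Msmo1 at -0.61, Srebf1 at 0.48, Fasn at 0.68 and Srebf2 at 0.06. With either LMP1 library left out, none of the 31 passed (25 and 126 of all genes did), and with any 1 Ctr library left out 7 passed. The low basal and high mesenchymal marker levels of these libraries, given above, move with the same comparison; their part in the result was not tested.

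**Figure D3:**
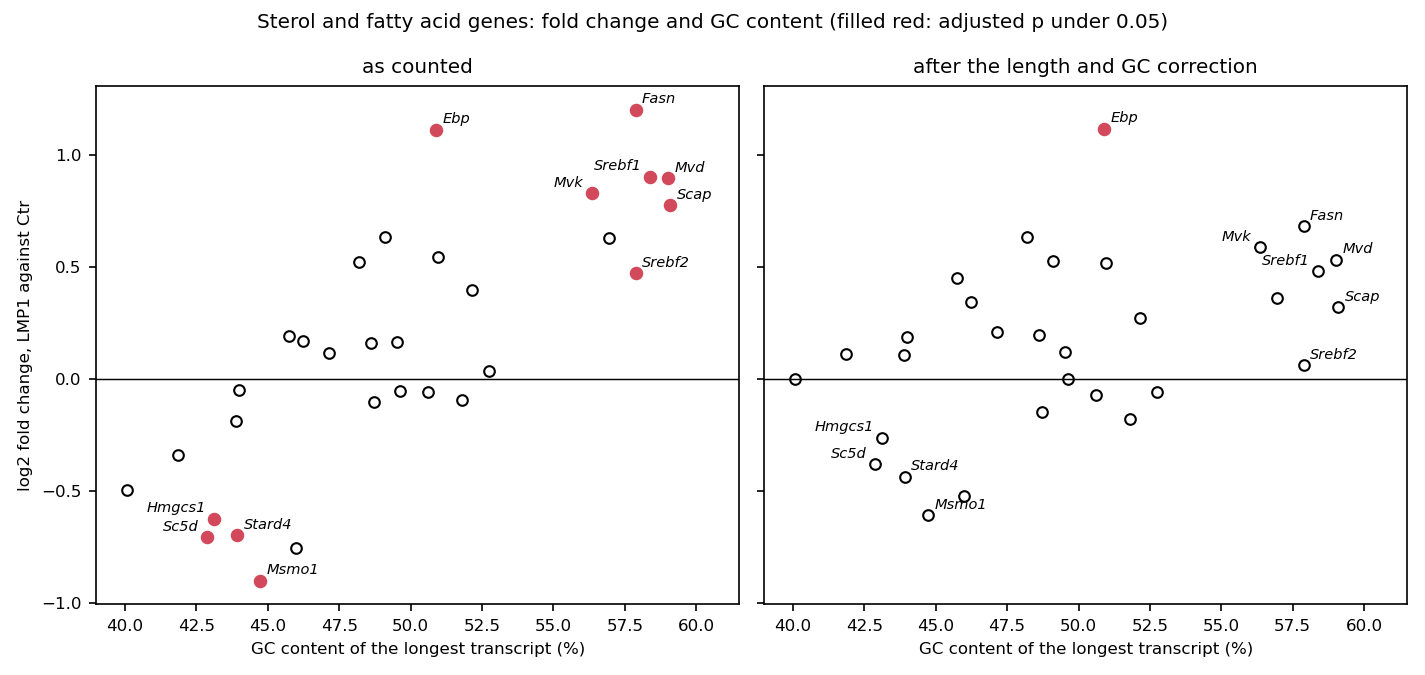
Log2 fold change of LMP1 against Ctr (vertical axis) by GC content of the longest transcript (horizontal axis, percent) for the 31 genes, as counted (left) and after the correction for length and GC content (right); filled red points passed an adjusted p under 0.05 in edgeR. On the left the 7 called higher genes sit at 50.9% GC or more and the 4 called lower genes at 44.7% or less, and on the right Ebp alone is filled.

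Neighbouring pathways were taken from lists chosen by function, and their counts stand beside the 16.4% of all genes called. Of 9 tested genes for SREBP processing and degradation, 2 rose: Aup1, a protein of the endoplasmic reticulum, at 129 and 138 CPM in LMP1 against 79.9, 68.2 and 61.8 in Ctr, and Mbtps1, the protease that makes the first cut in SREBP, at 259 and 233 against 137, 191 and 148 CPM. Of 14 genes for sterol uptake, transport, esterification and efflux 3 rose, among them Nr1h2, which encodes a liver X receptor, at 90.9 and 83.4 against 48.2, 34.0 and 36.5 CPM (edgeR adjusted p = 0.00892), and the lipoprotein receptor Scarb1 (edgeR adjusted p = 0.0294). Of 13 genes of fatty acid oxidation 3 rose and 1 fell, with Acadm (0.67 on the log2 scale) and Acadvl (0.66) the clearest, both acyl-CoA dehydrogenases. Among 12 genes that use isoprenoids 1 fell, Pggt1b, and among 20 that supply acetyl-CoA and NADPH or extend and activate fatty acids 1 fell, malic enzyme Me1, at 17.4 and 23.1 against 69.8, 40.8 and 58.9 CPM.

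Lung-LMP1 and LMP1 share the TMPL genotype and differ in the Lung prefix. Here 7 of the 31 genes rose in Lung-LMP1 (Hmgcs1, Sc5d, Msmo1, Lss, Scd2, Nsdhl and Stard4) and none fell, 22.6% of the set, where 10.1% of all genes tested passed (6.17% higher and 3.94% lower). By role, 4 of the 11 sterol enzymes rose, and 1 each of the mevalonate enzymes, the regulators and the fatty acid enzymes. The set's median log2 fold change was 0.40, against 0.01 over all genes. The comparison uses the same LMP1 libraries as the one before, so a gene low in those libraries moves in both, and these results are not independent.

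All 4 genes that fell in LMP1 against Ctr were among the 7. Hmgcs1 was at 516, 633 and 581 CPM in Lung-LMP1, all above 301 and 303 in LMP1, and rose 2.09-fold (1.07 ± 0.14 SE on the log2 scale, edgeR adjusted p = 0.00483). Msmo1 was at 438, 472 and 403 CPM, each of them more than any LMP1 library, a 2.38-fold rise (1.25 ± 0.22 SE, edgeR adjusted p = 0.0126). Sc5d, at 159, 173 and 153 CPM, rose 1.93-fold (0.95 ± 0.15 SE, edgeR adjusted p = 0.00888). No Lung-LMP1 library of these genes fell within the LMP1 range. Stard4 had the largest adjusted p of the 7 (0.70 ± 0.17 SE, edgeR adjusted p = 0.0395).

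Another 3 genes rose that had not differed detectably between LMP1 and Ctr. Lss, which closes squalene epoxide into lanosterol (chromosome 10, 76531588 to 76557138), was at 264, 229.8 and 279.6 CPM in Lung-LMP1 and 139 and 160.0 in LMP1, without overlap (0.92 ± 0.18 SE on the log2 scale, edgeR adjusted p = 0.0189). Nsdhl, a dehydrogenase of the same demethylation steps as Msmo1 (chromosome X, 72918557 to 72958514), was at 103, 131 and 103 against 64.5 and 72.7 CPM (0.84 ± 0.20 SE, edgeR adjusted p = 0.0344). Scd2, a desaturase that makes monounsaturated fatty acids (chromosome 19, 44293674 to 44306864), was at 4249, 5199 and 5177 against 3265 and 3709 CPM (0.61 ± 0.14 SE, edgeR adjusted p = 0.0299). Every Lung-LMP1 library exceeded both LMP1 libraries for each of them. Srebf1 was at 252, 249 and 249.5 CPM, below both LMP1 libraries, and missed the threshold (-0.60 ± 0.18 SE, edgeR adjusted p = 0.0684) while Srebf2 and Scap overlapped between the groups. Insig1 was at 195, 350.0 and 294 against 466 and 360.1 CPM (edgeR adjusted p = 0.458). Fasn was at 1363, 728 and 876 CPM, each value below both LMP1 libraries, and did not pass (edgeR adjusted p = 0.276). The log2 fold changes of Insig2 (0.62 ± 0.26 SE), Cyp51 (0.65 ± 0.22 SE) and Sqle (0.29 ± 0.16 SE) came with edgeR adjusted p of 0.167, 0.0916 and 0.265. Acly and Scd1 overlapped between the groups, with edgeR adjusted p of 0.811 and 0.986.

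Spearman's rho of GC content with log2 fold change was -0.58 over the 31 genes and -0.34 after the correction for length and GC content. Under it Hmgcs1, Lss, Msmo1, Sc5d and Scd2 stayed called among 6 genes of the set (19.4%, against 9% of all genes). Without either LMP1 library none of the 31 passed (33 and 154 of all genes did), and without Lung-LMP1 replicate 2 or 3 there were 4 and 3. Basal markers summed to 2156 to 3634 CPM in Lung-LMP1 and 133 to 187 in LMP1, and mesenchymal markers to 8.86 to 17.99 and 1644 to 2051. All 6 tested basal markers were called higher in Lung-LMP1, and 3 of 7 tested mesenchymal markers lower. The adipocyte marker Lpl was called lower in Lung-LMP1 (-1.84 on the log2 scale, edgeR adjusted p = 0.00894), at the levels given above, and 1 of 2 tested ciliated markers, Tppp3, was called lower (edgeR adjusted p = 0.0356), with ciliated sums of 2.30 to 3.75 and 13.8 to 28.9 CPM; their part in the result was not tested. In the neighbouring lists, to be read beside the 10.1% of all genes called (6.17% higher and 3.94% lower), fatty acid oxidation had 3 of 13 genes lower, led by Cpt1a, the carnitine transferase that admits fatty acids to mitochondria, at 33.6, 35.3 and 31.7 against 75.2 and 85.3 CPM (edgeR adjusted p = 0.00833), and Acadm (edgeR adjusted p = 0.0244). Sterol uptake and efflux had 2 of 14 lower, the lysosomal lipase Lipa at 7.52, 12.1 and 6.86 against 44.9 and 35.7 CPM (edgeR adjusted p = 0.0118) and the cholesterol exporter Abca1 at 2.10, 4.77 and 1.28 against 129 and 66.4 CPM (edgeR adjusted p = 0.0286). Me1 rose from 17.4 and 23.1 to 40.2, 78.5 and 99.5 CPM and Rabggta, a subunit of a prenyl transferase, by 0.95 on the log2 scale, each the 1 called gene of its list, and none of the 9 genes for SREBP processing passed.

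**Figure D4:**
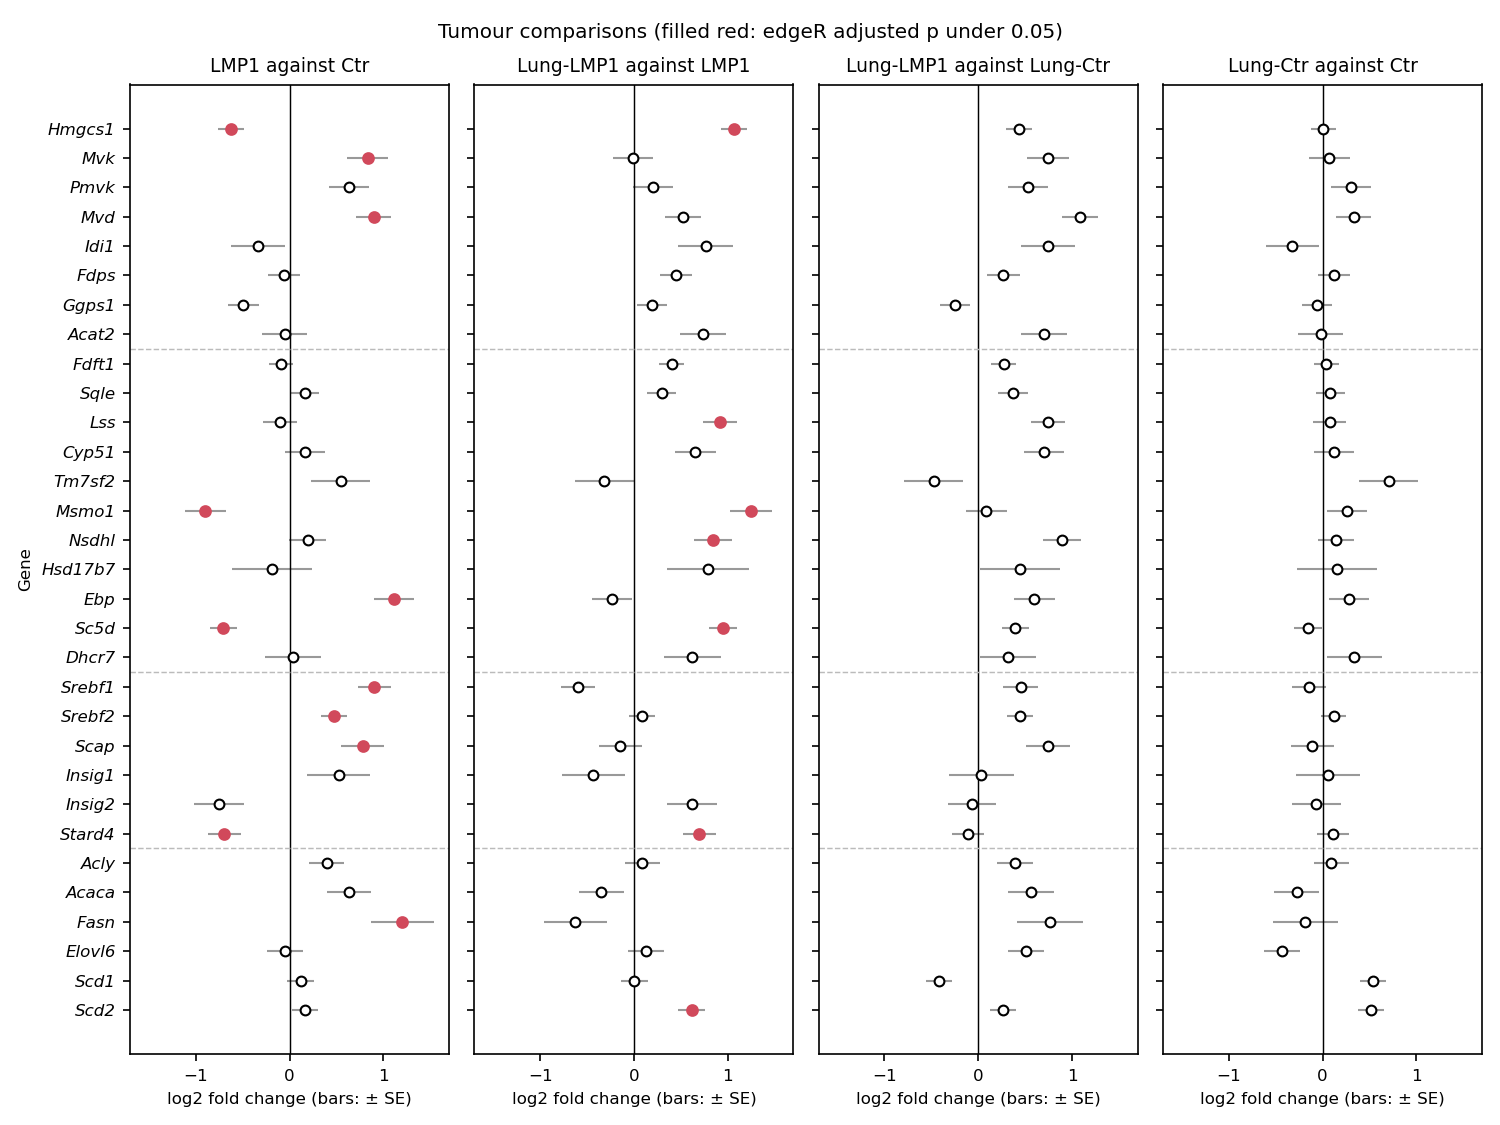
Log2 fold change (points) with its SE (bars) for each of the 31 genes in the 4 comparisons between tumour groups, from edgeR; filled red points passed an adjusted p under 0.05, and dashed lines part the roles. There are 11 filled points for LMP1 against Ctr, 7 for Lung-LMP1 against LMP1 and none in the other panels, where Lung-LMP1 against Lung-Ctr lies to the right of 0 for 26 of 31 genes.

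Lung-LMP1 and Lung-Ctr compare the genotypes among libraries with the Lung prefix. None of the 31 genes passed, and none of all 13460 genes did (0% called), with edgeR; DESeq2 called 3 of the 31 and 792 of all. At an unadjusted p under 0.05, edgeR gave 18 of the 31 (58.1%), against 17.1% of all genes. Point estimates were above 0 for 26 of the 31, with a median log2 fold change of 0.44 against -0.04 over all genes. As CPM scaled by TMM factors, ranges were apart for 22 genes that were higher (71.0%, against 17.4% of all genes) and for Ggps1 and Scd1, which were lower (6.45%, against 15.9%). By role the medians were 0.62 for the mevalonate enzymes, 0.40 for the sterol enzymes, 0.24 for the regulators and 0.45 for the fatty acid enzymes. None of the genes in the 5 neighbouring lists passed.

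The smallest p-values belonged to Mvd, Nsdhl and Lss. Mvd was at 59.6, 64.9 and 60.9 CPM in Lung-LMP1 and 31.2 and 29.2 in Lung-Ctr, 2.12-fold apart (1.09 ± 0.19 SE on the log2 scale, edgeR adjusted p = 0.109). Nsdhl was at 103, 131 and 103 against 72.2 and 53.3 CPM (edgeR adjusted p = 0.119), and Lss at 264, 229.8 and 279.6 against 188 and 132 CPM (edgeR adjusted p = 0.130). In these 3 genes every Lung-LMP1 library lay above both Lung-Ctr libraries, and Lung-Ctr replicate 2 was the lower of its pair. Cyp51, at 425, 369 and 303 against 270.3 and 198 CPM (edgeR adjusted p = 0.176), and Hmgcs1, at 445 and 439 CPM in Lung-Ctr (edgeR adjusted p = 0.175), were placed alike. So was Sqle, at 312, 252 and 271 against 225 and 222 CPM (edgeR adjusted p = 0.276). The regulators Scap (0.74 ± 0.23 SE on the log2 scale), Srebf1 (0.45 ± 0.18 SE) and Srebf2 (0.44 ± 0.14 SE) had edgeR adjusted p of 0.179, 0.258 and 0.178. Insig1 and Insig2 overlapped (edgeR adjusted p = 0.970 and 0.918). Of the fatty acid enzymes, Scd1 was the 1 that was lower, at 437, 526 and 439.7 against 686 and 610.2 CPM (edgeR adjusted p = 0.198), while Scd2 (0.27 ± 0.14 SE), Acly (0.39 ± 0.19 SE) and Fasn (0.76 ± 0.35 SE) had estimates above 0 (edgeR adjusted p = 0.354, 0.325 and 0.311).

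The set's median per library (log2 of CPM over the gene's geometric mean in the tumour libraries) was 0.31, 0.24 and 0.17 in Lung-LMP1, -0.01 and -0.30 in Lung-Ctr, -0.27, -0.10 and -0.10 in Ctr, and -0.16 and 0.05 in LMP1. No library of the other groups reached those of Lung-LMP1. Lung-Ctr replicate 2 was the lower of its pair for 27 of the 31 genes, against 49.4% of the 10426 genes above a set mean CPM in that group. That library had Krt5, a basal keratin, at 1993 CPM and its partner at 19.8. Lpl, a lipase secreted by adipocytes and other cells, was at 47.7, 23.1 and 40.4 CPM in Lung-LMP1 and 139.6 and 149.7 in Lung-Ctr. The part of these in the result was not tested.

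Lung-Ctr and Ctr share the TMP genotype. No gene of the set passed and none of all genes did (0% called); by unadjusted p under 0.05 there were 2 of the 31 (6.45%), against 5.33% of all genes, and DESeq2 called none of the 31 and 41 of all. As CPM scaled by TMM factors, ranges were apart for 5 higher and 1 lower gene of the set, against 6.98% and 7.21% of all genes. The 2 of smallest p were the stearoyl-CoA desaturases, near each other on chromosome 19. Scd1 (44394455 to 44407879) was at 686 and 610.2 CPM in Lung-Ctr and 514, 465 and 414 in Ctr (0.54 ± 0.14 SE on the log2 scale, edgeR adjusted p = 0.916). Scd2 was at 4362 and 4031 against 3331, 2873 and 2974 CPM (0.51 ± 0.14 SE, edgeR adjusted p = 0.916). Both were higher in both Lung-Ctr libraries, and Elovl6, which extends palmitate, was lower in both, at 254 and 238 against 315, 337 and 383 CPM (edgeR adjusted p = 0.916). For other sterol genes and regulators named above the log2 intervals were -0.30 to 0.31 for Hmgcs1, -0.27 to 0.44 for Sqle, -0.36 to 0.60 for Cyp51, -0.56 to 0.26 for Srebf1, -0.19 to 0.43 for Srebf2, -0.63 to 0.41 for Scap, -0.72 to 0.83 for Insig1 and -0.65 to 0.52 for Insig2. Those of Fasn and Acly were -0.96 to 0.60 and -0.33 to 0.52.

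The interaction asks whether the effect of genotype differed between libraries with and without the Lung prefix. Hmgcs1 was the 1 gene of the set that passed (3.23% of the set, against 0.892% of all genes, 0.810% higher and 0.0817% lower): its log2 fold change between genotypes was -0.62 without the prefix and 0.44 with it, a difference of 1.06 ± 0.19 SE (edgeR adjusted p = 0.0468). The adjusted p sits just under the threshold, and the call was lost with RLE size factors, without the filter on low counts, after the correction for length and GC content and in 9 of the 10 fits that leave out 1 library (without Ctr replicate 2 it stayed). For Srebf1 the difference was -0.45 ± 0.25 SE (edgeR adjusted p = 0.441), for Fasn -0.44 ± 0.48 SE (edgeR adjusted p = 0.726) and for Scd1 -0.53 ± 0.20 SE (edgeR adjusted p = 0.255). For Srebf2, Scap, Insig1, Insig2, Sqle, Cyp51, Acly and Scd2 the difference lay between -0.49 and 0.69 on the log2 scale, with edgeR adjusted p of 0.415 or more. Sc5d, with a difference of 1.10, missed the threshold narrowly (edgeR adjusted p = 0.0535). A different response was thus not shown for any of these.

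Each tumour group was also set against the normal comparator, in a fit of 13 libraries; the 4 comparisons share the comparator columns and are not independent. Dhcr7, Insig1, Scd1 and Scd2 were called higher in all 4 tumour groups, Stard4 and Acaca in 3 and Elovl6 in 2. For these 7 genes all 10 tumour libraries lay above all 3 comparator columns, and for none of the 31 did all lie below; over 12631 genes with a mean of at least 1 CPM, 1763 lay above and 1474 below. As counts, 7 rose and 3 fell in Ctr (32.3% of the set, against 35.1% of all genes, 16.1% higher and 19.0% lower), 7 rose and 1 fell in LMP1 (25.8%, against 28.2%, 13.7% higher and 14.5% lower), 5 rose and 1 fell in Lung-Ctr (19.4%, against 27.4%, 13.2% higher and 14.2% lower) and 12 rose and 1 fell in Lung-LMP1 (41.9%, against 32.0%, 14.6% higher and 17.4% lower). Whether these shares lie above or below those of all genes turned on single comparator columns and, in Lung-LMP1, also on single tumour libraries, as given below.

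Scd2 was at 1797, 289.6 and 940.3 CPM in the comparator columns, below every tumour library listed above. It rose by 2.31 ± 0.48 SE (log2) in Lung-LMP1, 2.03 ± 0.51 SE in Lung-Ctr, 1.74 ± 0.50 SE in LMP1 and 1.52 ± 0.47 SE in Ctr, with edgeR adjusted p of 0.00631, 0.0152, 0.0280 and 0.0273. Scd1 was at 226, 41.2 and 133 CPM there, with log2 fold changes of 1.84, 2.25, 1.88 and 1.71 in the same order. In both genes comparator replicate 2 was the lowest column. Insig1 (chromosome 5, 28071363 to 28078662) was at 130.0, 34.4 and 119 CPM in the comparator, against 195, 350.0 and 294 for Lung-LMP1 and 351 and 214 for Lung-Ctr, with log2 rises of 1.601, 1.55, 2.08 and 1.498 in that order. Dhcr7, a reductase at the end of the route to cholesterol (chromosome 7, 143823145 to 143848410), was at 99.5, 47.2 and 66.5 CPM in the comparator, 227, 205 and 190.3 in Lung-LMP1, 237 and 109 in Lung-Ctr, 135 and 161 in LMP1 and 139, 123 and 165 in Ctr. Its call in LMP1 was marginal (edgeR adjusted p = 0.04995). Its lowest tumour library, Lung-Ctr replicate 2, was the nearest to the comparator's highest column.

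Acaca (chromosome 11, 84129672 to 84401651), at 155, 52.5 and 78.5 CPM in the comparator, rose in Ctr, LMP1 and Lung-LMP1 (log2 1.21, 1.89 and 1.503). Stard4, at 98.8, 10.1 and 46.2 CPM, rose in Ctr, Lung-Ctr and Lung-LMP1 (log2 1.75, 1.86 and 1.77). Called in 1 group were Srebf1 (1.16) and Fasn (2.15), higher in LMP1, and Hmgcs1 (1.32), Idi1 (1.88), Lss (1.24), Msmo1 (0.99) and Sc5d (0.74), higher in Lung-LMP1. The last 5 are all enzymes of the sterol route. Genes called lower were Tm7sf2 in Ctr and Lung-LMP1 (-1.47 and -1.22), Scap in Ctr and Lung-Ctr (-0.71 and -0.83), Pmvk in Ctr (-0.82) and Insig2 in LMP1 (-0.92). Tm7sf2 stood at 38.1, 14.9 and 33.9 CPM in the comparator and 12.9, 12.2 and 8.21 in Ctr. In none of the groups did Srebf2, Sqle, Cyp51 or Acly pass, with log2 fold changes of 0.17 to 0.74, 0.35 to 0.82, 0.29 to 1.12 and -0.09 to 0.40.

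Markers of other cells moved with the same comparisons. In each tumour group 2 of 2 tested leukocyte markers, 4 of 5 alveolar type 2 markers and the 1 tested secretory marker were called lower than in the comparator, and the 1 tested adipocyte marker, Lpl, was called higher. Leukocyte markers summed to 7.73 to 41.3 CPM in the tumour libraries and 63.1 to 298 in the comparator. The comparator sum was nearly all Cd68 (14.2, 288 and 98.4 CPM) and Lyz2 (47.6, 9.98 and 37.7). Ptprc was at most at 1.09 CPM there and 0.216 in the tumours, where Cd68 was at 7.10 to 40.2. Alveolar type 2 markers summed to 37.98 to 79.9 CPM in the tumour libraries and 100.8 to 241 in the comparator, and secretory markers to at most 1.52 and to 12.99 to 586. All 6 basal markers were called lower in LMP1, 2 of 6 in Ctr and in Lung-Ctr, and 1 of 6 in Lung-LMP1. Their part in the result was not tested. After the correction for length and GC content 7 genes of the set were called in Ctr (22.6%, against 26.8% of all genes). There were 9 in LMP1 (29%, against 26%), 4 in Lung-Ctr (12.9%, against 18.3%) and 10 in Lung-LMP1 (32.3%, against 26.7%). In Lung-LMP1 the calls of Hmgcs1, Idi1, Msmo1 and Sc5d were then lost and that of Lss was not. Stard4 and Elovl6 lost each of their calls against the comparator, Scap its calls in Ctr and Lung-Ctr and Insig1 its call in Lung-Ctr, and Pmvk in Ctr moved from -0.82 to -0.06 on the log2 scale.

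The comparator columns differed from each other far more in this set than in other genes. The median ratio of highest to lowest column was 3.63 over the 31 genes and 1.73 over the 10754 genes above a set mean CPM in these columns. Replicate 2 was lowest for 28 of the 31 genes, against 33.9% of those 10754, and replicate 1 highest for 29, against 34.7%. Relative to the tumour libraries the set's medians (log2) were -0.00 in replicate 1, -1.65 in replicate 2 and -0.67 in replicate 3, and those of the 6 fatty acid enzymes -0.66, -3.20 and -1.89. Idi1 had the widest range, 356, 28.3 and 140.1 CPM. Some epithelial markers had the same order of columns: Krt5 was at 8075, 2090.2 and 5913 CPM and Bpifa1, a secreted airway protein, at 585, 12.6 and 101. Others did not. Cdh1 was at 705.3, 777 and 632 CPM, Krt18 at 998, 981 and 962, and Trp63 at 216, 58.8 and 308. The part of these markers in the spread was not tested. Without comparator replicate 1 the genes called numbered 24 in Lung-LMP1 (77.4% of the set, against 38.3% of all genes), 15 in Lung-Ctr (48.4%, against 32.7%), 16 in LMP1 (51.6%, against 34.7%) and 17 in Ctr (54.8%, against 39.2%). Without replicate 3 they numbered 5 (16.1%, against 20.6%), 2 (6.45%, against 21.0%), 4 (12.9%, against 18.7%) and 4 (12.9%, against 27.3%) in the same order. The set's share was thus above that of all genes in every group without replicate 1 and below it in every group without replicate 3. Without any 1 tumour library of the group compared they numbered 5 to 7 in Lung-LMP1 (16.1% to 22.6%, against 16.7% to 24.7% of all genes). In Ctr they then numbered 3 to 5 (9.68% to 16.1%, against 26.7% to 30.6%). In none of these fits was the set's share above that of all genes. With only the groups compared in the fit they numbered 3 (Acaca, Dhcr7 and Scd2) in Lung-LMP1, 9.68% against 22.7%. Likewise 0 passed in Lung-Ctr (against 1.24%), 0 in LMP1 (against 16.7%) and 1 (Tm7sf2) in Ctr, 3.23% against 22.4%.

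Normal nasopharynx and normal lung organoids differed most in the desaturase Scd1 among the genes of the set. Of the 31 genes, 8 were lower in Normal_nasopha (Scd1, Pmvk, Fasn, Acaca, Insig1, Srebf1, Scd2 and Lss) and 1 was higher (Scap), 29.0% of the set, against 31.1% of all genes tested (15.4% higher and 15.6% lower). The set's median log2 fold change was -0.69, against 0.13 over all genes. Of the 6 fatty acid enzymes 4 were lower, with a median of -2.04 over the 6, and of the 11 sterol enzymes 1 was. Ranges were apart for 13 lower genes (41.9%, against 24.6% of all genes) and 1 higher gene (3.23%, against 25.9%).

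Scd1 was at 205, 37.4 and 120.2 CPM in Normal_nasopha and 20337, 10506 and 13402 in Normal_lung, 137-fold lower (-7.10 ± 0.79 SE on the log2 scale, edgeR adjusted p = 0.00114). No lung library came near any nasopharynx library. Fasn was at 678, 124 and 228 against 3559, 3031 and 3529 CPM (-3.46 ± 0.64 SE, edgeR adjusted p = 0.00752). Scd2 was at 1642, 268 and 852 against 4566, 3466 and 4154 CPM, a smaller gap than for Scd1 (-2.31 ± 0.61 SE, edgeR adjusted p = 0.0281). Acaca was at 96.6, 32.2 and 49.4 against 180.1, 181 and 187 CPM (-1.78 ± 0.38 SE, edgeR adjusted p = 0.0135). Nasopharynx replicate 2 was the lowest of its group for all of these. The lung libraries lay within 1.32-fold of each other for Fasn, Scd2 and Acaca and 1.94-fold apart for Scd1, less than the nasopharynx libraries in each case. Srebf1 was at 230.3, 103 and 171 against 346, 336 and 339 CPM (-1.17 ± 0.29 SE, edgeR adjusted p = 0.0227), and Insig1 at 121, 32.5 and 109 against 327, 329 and 370.1 CPM (-2.13 ± 0.46 SE, edgeR adjusted p = 0.0137). Elovl6 was the fatty acid enzyme on the other side, at 187, 18.4 and 76.5 against 17.0, 23.1 and 13.9 CPM, and missed the threshold (2.23 ± 0.73 SE, edgeR adjusted p = 0.0574). Its nasopharynx replicate 2 fell inside the lung range.

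Pmvk, a kinase of the mevalonate route, was the clearest sterol gene, at 41.4, 24.4 and 33.1 against 99.4, 115 and 106 CPM (-1.85 ± 0.22 SE on the log2 scale, edgeR adjusted p = 0.00144). Scap was higher in nasopharynx, at 140.2, 95.5 and 115 against 56.9, 65.2 and 59.9 CPM (0.79 ± 0.18 SE, edgeR adjusted p = 0.0174). Alveolar type 2 markers summed to 52421 to 63016 CPM in Normal_lung and 88.9 to 218 in Normal_nasopha, so the labelled lung organoids carry the defining markers of alveolar epithelium. Leukocyte markers summed to 1667 to 2893 CPM in lung and 56.8 to 273 in nasopharynx, and mesenchymal markers to 321 to 1051 and 18.4 to 50.4. The leukocyte sum in lung was nearly all Lyz2 (1663, 2878 and 2517 CPM), with Ptprc at 0.894, 4.99 and 3.55 CPM. Cd68 went the other way, at 2.53, 10.3 and 4.32 CPM in lung and 12.96, 264 and 87.1 in nasopharynx. Of 3 tested leukocyte markers, 1 was called higher and 1 lower in nasopharynx. Adipocyte markers summed to 9.37 to 21.2 CPM in lung and 0.387 to 1.94 in nasopharynx, and basal markers to 282 to 433 and 2770.4 to 14072. The part of these cells in the result was not tested. Of the neighbouring lists, beside 15.4% of all genes called higher and 15.6% lower, fatty acid supply and elongation had 5 of 20 genes lower and 1 higher, with the elongase Elovl1 at 122, 94.0 and 86.8 against 1465, 1549 and 1389 CPM (edgeR adjusted p = 0.000184). Fatty acid oxidation had 4 of 13 lower, sterol transport 4 lower and 3 higher of 14, led by the lysosomal carrier Npc2 at 114, 136 and 159 against 6835, 6209 and 8401 CPM (edgeR adjusted p = 0.000155). Without Normal_nasopha replicate 1 the genes of the set called numbered 16 (51.6%, against 32.9% of all genes). That is above the share of all genes, where the fit of all 6 libraries gave 29.0% against 31.1%. Without Normal_nasopha replicate 2 they numbered 12 (38.7%, against 31.8%) and without replicate 3 they numbered 6 (19.4%, against 30.7%). Leaving out any 1 lung library gave 5 (16.1%, against 16.1% to 19.3%).

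**Figure D5:**
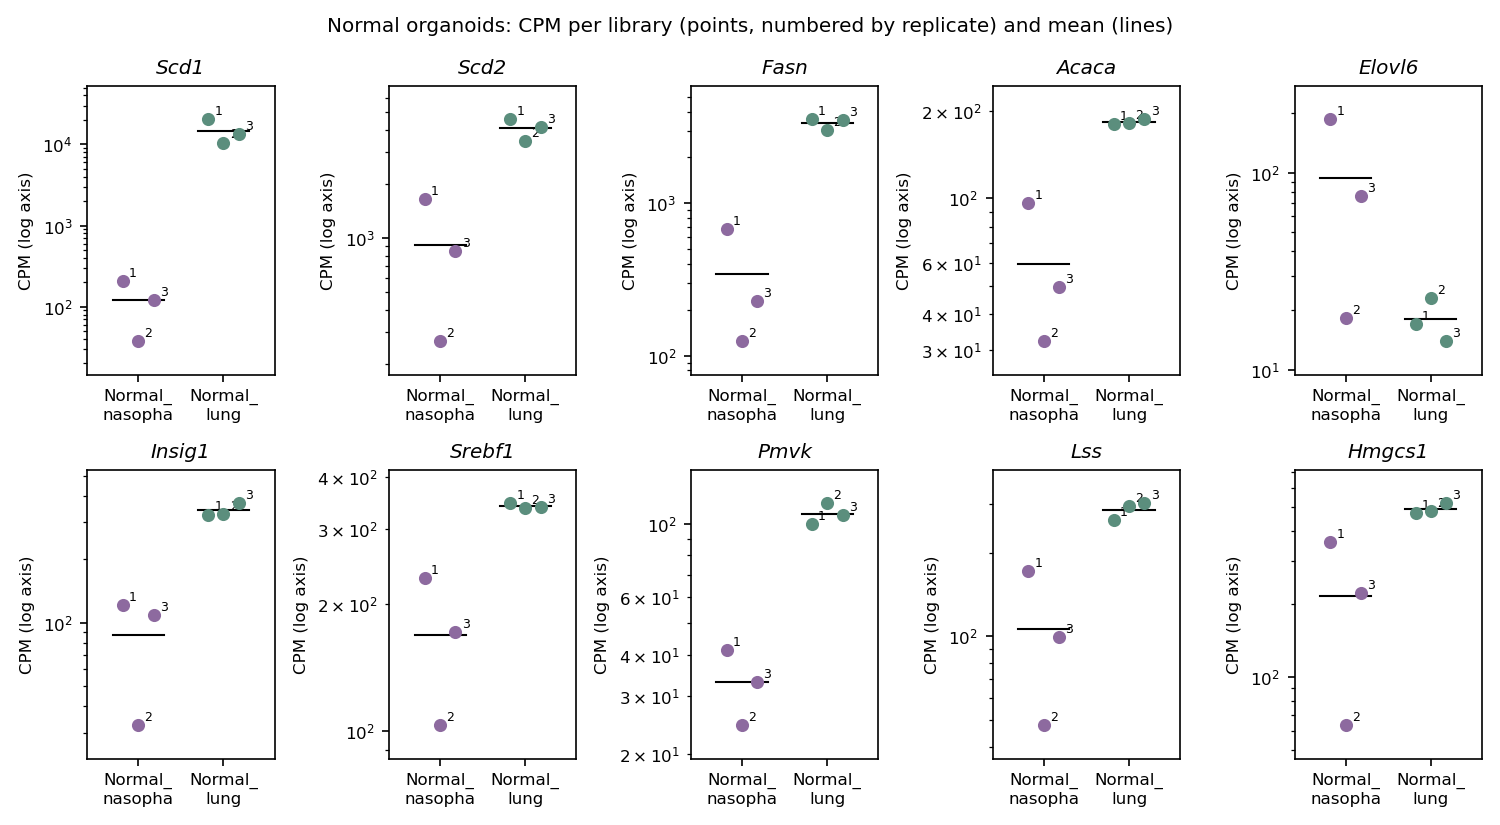
CPM by total count (log axes) of 10 of the genes in the normal organoids; points are libraries, numbered by replicate, and lines are group means. The 3 lung libraries cluster for most genes and lie far above nasopharynx for Scd1, and nasopharynx replicate 2 is the lowest of its group in all 10 panels.

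The balance between paralogs differed between tissues. Per base of exon, Scd1 made up 8.66% to 15.3% of Scd1 and Scd2 together in the tumour libraries, 12.3% to 13.6% in Normal_nasopha and 77.2% to 83.3% in Normal_lung. Within the tumours the 3 Lung-LMP1 libraries had the lowest shares, 8.66% to 10.3%, and the other 7 had 13.4% to 15.3%. Insig1 made up 91.2% to 92.9% of Insig1 and Insig2 in LMP1, 84.5% to 85.5% in Lung-LMP1, 79.7% to 86.9% in Lung-Ctr, 79.7% to 83.8% in Ctr, 37.5% to 71.6% in Normal_nasopha and 83.8% to 87.9% in Normal_lung. Srebf1 made up 48.6% to 55.7% of both SREBP genes in LMP1, 39.9% to 41.0% in Lung-LMP1, 33.9% to 46.6% in Lung-Ctr and 39.3% to 48.3% in Ctr. These pairs are paralogs, and the sources used here do not say how reads matching both were counted. The shares are descriptions and carry no test.

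The comparator columns and the Normal_nasopha columns, which correlate most closely by number, differed in level for a few genes. Between the comparator column and the Normal_nasopha column of the same number, the mean ratio of CPM was 0.81 to 1.36 for 29 of the 31 genes, 1.61 for Acaca and 29.8 for Fdps (36.2, 31.1 and 22.2). Fdps, the farnesyl diphosphate synthase, stood at 382, 55.8 and 205 CPM in the comparator and 10.5, 1.79 and 9.22 in Normal_nasopha, so its level cannot be set across those tables. In the authors' deposited tables, 8 of the 31 genes were higher and 6 lower in LMP1 than Ctr, 15 higher and 1 lower in Lung-LMP1 than LMP1, 2 higher in Lung-LMP1 than Lung-Ctr, none different between Lung-Ctr and Ctr, 7 higher and 1 lower in Ctr than the comparator, and 2 higher and 10 lower in nasopharynx than lung, each at the deposited adjusted p under 0.05.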

How the data were processed

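RNA-seq of 16 mouse organoid libraries was analysed from whole-number gene counts that the authors deposited, per the file headers. The submitters' processing notes name STAR, mm10, DESeq and DESeq2 without versions; the counting program and annotation were not found there. Tumour libraries and the comparator columns share tables of 24421 gene symbols (27 turned into dates), and normal libraries a table of 51912 Ensembl entries. Columns that repeat a library (13) held identical counts; 32 further per-sample columns were not used. The log2 fold changes and adjusted p-values of the authors' own comparisons, per the file headers, are quoted once, from the deposited tables.

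CPM is the count over the library's total. RPKM uses the union exon length of GENCODE vM21 on GRCm38. Genes passing filterByExpr were fitted with edgeR 4.0.16 (R 4.3.3; TMM, robust quasi-likelihood, 1 mean per group): 10 tumour libraries (13460 genes, 6 residual degrees of freedom), 13 with the comparator (14096 genes, 8) and 6 normal libraries (15886 genes, 4). P-values were adjusted by Benjamini-Hochberg over all genes tested, with calls at an adjusted p under 0.05; SEs are on the log2 scale and intervals are 95%. The pipeline was tested on simulated data. Alternatives were DESeq2 1.42.0, RLE size factors, no filter, a replicate block, a length and GC correction (mgcv 1.9.3), only the groups compared, 13 libraries in the fit, and leaving out each library. A count of 0 allows up to 3 counts, counting error only.

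The 31 genes, the pathway lists and the markers were chosen with earlier results of these data known. Values per library are given for called genes, up to 6 in each direction by adjusted p, or the 3 of smallest p where none was called, and for Srebf1, Srebf2, Scap, Insig1, Insig2, Hmgcs1, Sqle, Cyp51, Fasn, Acly, Scd1 and Scd2; other genes given values were picked after their values were seen.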

Additional observations from a re-analysis of the deposited data

Results flagged for a closer look

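Hmgcs1, the cytosolic synthase at the start of the mevalonate route, is listed because the effect of genotype differed between libraries with and without the Lung prefix by the test of the interaction itself. The difference in log2 fold change was 1.06 ± 0.19 SE (edgeR adjusted p = 0.0468), from -0.62 between LMP1 and Ctr to 0.44 between Lung-LMP1 and Lung-Ctr. Under the alternatives the difference stayed between 0.82, after the correction for length and GC content, and 1.13, without Ctr replicate 2. DESeq2 also called it, and the other alternatives did not, apart from that without Ctr replicate 2.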

How the results depend on the processing

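With 2 or 3 libraries a group, counts of called genes among the 31 moved with the settings. None of the genes of the set chosen by the rule above turned direction past the threshold. Markers and genes of the neighbouring lists were not followed across the settings. The cause of these moves was not tested unless stated. For LMP1 against Ctr 1 gene passed after the length and GC correction (1102 of all genes, against 2210). DESeq2 gave 11 for Lung-LMP1 against LMP1 (2459 of all, against 1360), 3 for Lung-LMP1 against Lung-Ctr (792 of all, against 0) and 2 for the interaction (914 of all, against 120). The interaction lost its 1 call (0) with RLE size factors, without the filter, after the length and GC correction and with 13 libraries in the fit. With only the groups compared in the fit, so fewer libraries to estimate the spread, 11 passed for Lung-LMP1 against LMP1 (2682 of all). Against the comparator 1 then passed in Ctr (2917 of all, against 4944) and 0 in LMP1 (2288 of all, against 3980). In Lung-Ctr 0 passed (168 of all, against 3861) and in Lung-LMP1 3 (2937 of all, against 4516).

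Leaving out each library in turn gave 0 to 7 genes for LMP1 against Ctr, 0 to 5 for Lung-LMP1 against LMP1, 0 to 2 for the interaction, 5 to 16 for the normal organoids, and 0 for both comparisons without a call. Against the comparator the ranges were 3 to 17 in Ctr, 0 to 16 in LMP1, 1 to 15 in Lung-Ctr and 5 to 24 in Lung-LMP1.

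Same-numbered libraries did not deviate together: correlations of deviations from group means ran from -0.331 to 0.171, and no comparison had every pair above 0.1. Whether libraries correlated best with their own number was checked only between groups of 3 libraries, and in none of those did every library do so. That check does not cover comparisons that include LMP1 or Lung-Ctr. With the replicate number as a block 0 genes passed for LMP1 against Ctr (483 of all), 1 for Lung-LMP1 against LMP1 (Hmgcs1; 360 of all), 0 for the interaction (2 of all) and 3 for Lung-Ctr against the comparator. The block left 9, 7 and 10 against the comparator in Ctr, LMP1 and Lung-LMP1 (4074, 2517 and 3515 of all). It left 8 between normal organoids (3622 of all), and 0 in both comparisons without a call.

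All 31 genes passed the filter on low counts in each fit, so depth removed none of them.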
